A study of Rattus norvegicus with 458 samples.

Results

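The hippocampus libraries of 7 Sprague Dawley rats (3 male and 4 female, 12 to 13 weeks old, naïve) were compared with the cerebrum libraries of the same 7 rats. Of the 215 small RNA libraries of the series, 10 carry the tissue label Hippocampus, and 7 of them, from Animal3, Animal4, Animal5, Animal8, Animal9, Animal10 and Animal11, were used together with the Cerebrum libraries of the same animal ids. The 3 others were left out because their profiles are those of another organ. The library of Animal2 lay nearest to the uterus libraries (median Pearson r = 0.956, against 0.666 with hippocampus), that of Animal6 nearest to the duodenum (0.953, against 0.601) and that of Animal7 nearest to the ovary (0.972, against 0.637). The comparison ran over all 7534 miRNA names of the deposited count table, of which 3750 had a count in these 14 libraries and 647 passed the filter on low counts and were tested.

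miRNAs are short RNAs, cut as 5p and 3p arms from hairpin precursors, that guide the silencing complex to messenger RNAs. Their targets are found chiefly through the seed, bases 2 to 8 of the mature strand, so miRNAs that share a seed share many predicted targets. The hippocampus is a folded sheet of pyramidal and granule neurons beside the lateral ventricle, with a place in memory formation, and the cerebrum is the larger forebrain mass around it. Both hold neurons, glia and vessels, and the choroid plexus of the ventricles can be taken with either.

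The sequences below, from RefSeq (assembly GRCr8), are those the results turn on, with the seed in capitals. Of the 647 tested names, 384 had a RefSeq mature sequence, among them 21 of the 24 miRNAs with the largest called changes. The first set holds miRNAs that were lower in the hippocampus.
miR-132-3p: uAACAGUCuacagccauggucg
miR-212-3p: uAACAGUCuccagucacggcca
miR-34a-5p: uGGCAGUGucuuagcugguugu
miR-490-3p: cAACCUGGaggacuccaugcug
miR-592: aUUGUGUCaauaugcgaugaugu
miR-873-5p: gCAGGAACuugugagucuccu
miR-181a-5p: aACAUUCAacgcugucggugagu
miR-181c-5p: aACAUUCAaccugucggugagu

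The second set holds miRNAs that were higher in the hippocampus. It shows 3 groups with a common seed, and miR-449a-5p, whose seed is that of miR-34a-5p above.
miR-449a-5p: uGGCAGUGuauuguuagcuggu
miR-7a-5p: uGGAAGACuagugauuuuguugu
miR-7b: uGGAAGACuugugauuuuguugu
miR-221-3p: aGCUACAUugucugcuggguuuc
miR-222-3p: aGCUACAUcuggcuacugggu
let-7b-5p: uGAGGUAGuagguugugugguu
let-7c-5p: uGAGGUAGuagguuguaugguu
miR-98-5p: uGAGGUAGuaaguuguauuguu
miR-218a-5p: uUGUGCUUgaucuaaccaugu
miR-448-3p: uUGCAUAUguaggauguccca
miR-504: aGACCCUGgucugcacucuguc
miR-935: cCAGUUACcgcuuccgcuaccgc

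The most counted sequence in these libraries began at the first base of the RefSeq strand for 16 of the 21 matched miRNAs with the largest changes. For miR-504, miR-935, miR-592, miR-551b-3p and miR-218a-2-3p it began 1 base later, which moves bases 2 to 8 by 1 base. In miR-504 this sequence took 40.6% of the counts and in miR-935 54.6%. As counted they read as follows, with bases 2 to 8 in capitals.
miR-504, most counted: gACCCUGGucugcacucuguc
miR-935, most counted: cAGUUACCgcuuccgcuaccgc

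The miR-212 and miR-132 hairpins are neighbours on the plus strand, with their mature strands at chr10:60521771-60522112 (GRCr8). Several others lie within the span of a protein coding gene in the RefSeq table, which gives spans without exons or strand. miR-448-3p (chrX:115642026-115642046) lies within Htr2c, which encodes a serotonin receptor abundant in choroid plexus epithelium. miR-490-3p (chr4:66014644-66014665) lies within the muscarinic receptor gene Chrm2, and miR-592 (chr4:57470804-57470826) within the glutamate receptor gene Grm8. miR-873-5p (chr5:56153150-56153170) lies within Lingo2, miR-504 (chrX:142354466-142354487) within Fgf13 and miR-935 (chr1:74671223-74671245) within Cacng8. The same sequence of miR-218a-5p lies within Slit3 (chr10:20572547-20572567) and Slit2 (chr14:66922413-66922433). miR-34a-5p lies at chr5:165815971-165815992, and miR-449a-5p at chr2:46403925-46403946.

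Library totals were 3490580 to 6617512 counts for the hippocampus (median 4391799) and 2958600 to 7506562 for the cerebrum (median 4603935). The RNA integrity number (RIN) was 6.0, 6.0 and 6.4 in the hippocampus of Animal4, Animal8 and Animal9, and between 7.6 and 8.2 in the other 11 RNAs. The mean RIN was 7.11 ± 0.939 (SD, n = 7) in the hippocampus and 7.99 ± 0.195 in the cerebrum (exact two-sided sign flip test over 7 pairs, p = 0.0938, with 0.0156 the smallest p possible). The cerebrum of Animal9 stood apart in read ends. In its larger run, 60.3% of the counts fell on sequences with 1 base added at the 5′ end of the most counted one, against 0.873% in its run on flow cell D1GBMACXX, and 0.732% to 0.897% over all runs of the other 13 libraries. By median correlation, the hippocampus of Animal10 was nearer to the cerebrum libraries than to the hippocampus libraries (0.979 against 0.971), and the cerebra of Animal4, Animal5, Animal8 and Animal9 were nearer to hippocampus. In bulk tissue, fewer cells of a type and less RNA per cell cannot be told apart.

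In the hippocampus, 63 names rose and 38 fell against the cerebrum (9.74% and 5.87% of the 647 tested, edgeR quasi-likelihood test with the rat as a block, Benjamini-Hochberg adjusted p under the threshold of 0.05). Of these 101 calls, 34 changed at least 2-fold (5.26% of the names tested), 18 up and 16 down. Over all names, 61 (9.43%) had no overlap in level between the libraries of the tissues, 28 with the hippocampus higher (4.33%) and 33 with it lower (5.1%). The median log2 fold change over all names was 0.19 under upper quartile scaling and 0.04 under TMM scaling, and TMM gave 46 higher and 64 lower, so the balance of the directions depends on the scaling and small rises lie near the shift. Levels are given in CPM (read counts scaled to a library total of 1000000). The largest rises and falls are the 12 in each direction among known miRNAs called with the same direction in all 7 pairs and at least 10 CPM in the higher tissue, and all 24 were also called under TMM scaling. The number of calls was 64 without Animal3, 67 without Animal5 and 52 without Animal10, and all 24 of these largest changes were called without Animal3 or Animal5 and 22 without Animal10. Without Animal4, Animal8 and Animal9, whose hippocampus RNA had the low RIN, 70 names were called, 57 of them among the 101, and 21 of the 24 (not miR-455-3p, miR-335 and miR-133a-3p;miR-133b-3p).

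**Figure D1:**
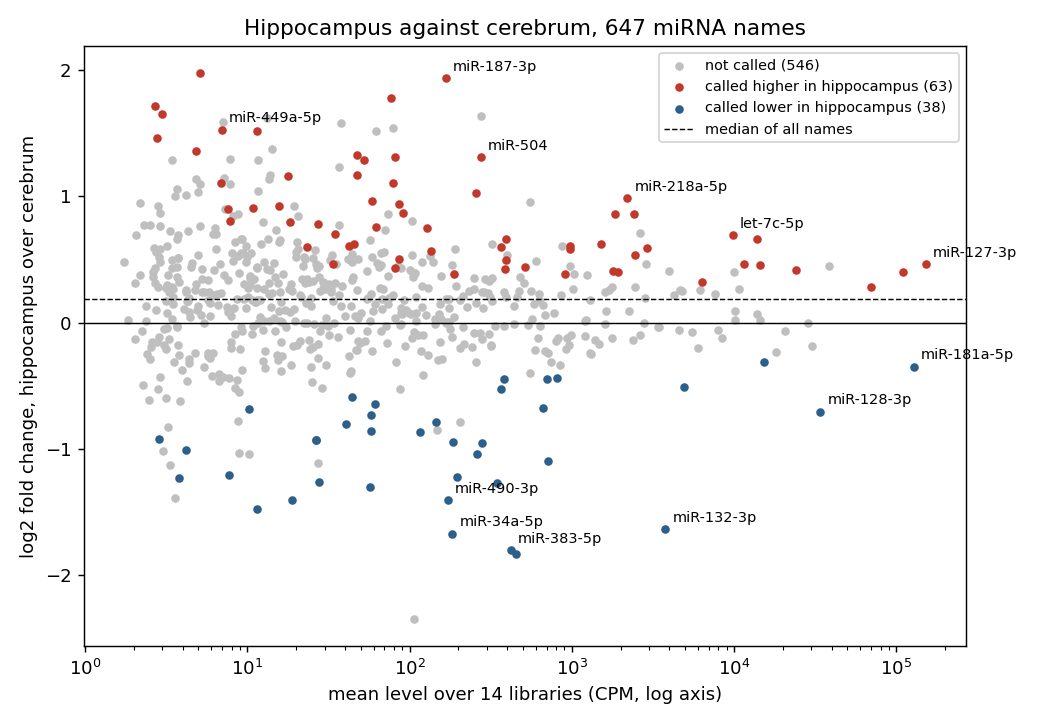
Log2 fold change of hippocampus over cerebrum (vertical axis) against the mean CPM over the 14 libraries (log axis) for 647 names. Red points are the 63 names called higher, blue points the 38 called lower, grey points were not called, and the dashed line is the median of all names at 0.19. miR-132-3p stands out among the abundant miRNAs, with a log2 fold change of -1.63.

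The 4 strands of the miR-132 and miR-212 locus were among the 12 largest falls, with miR-132-5p first. These miRNAs are induced by neuronal activity and CREB signalling and act on dendrite growth. miR-132-3p was at 1405 to 2155 CPM in the hippocampus (median 1645) and at 4419 to 7082 CPM in the cerebrum (median 6019). No hippocampus library reached the lowest cerebrum library. Its log2 fold change was -1.63 ± 0.10 (SE, n = 7 pairs, edgeR adjusted p = 5.61e-05), a level 3.11-fold lower. Its other arm, miR-132-5p, was at 140 to 227 CPM (median 186) against 616 to 765 CPM (median 749), with a log2 fold change of -1.83 ± 0.13 (edgeR adjusted p = 9.09e-05). miR-212-3p, with the same seed as miR-132-3p, was at 364 to 539 CPM in the hippocampus and 833 to 1242 CPM in the cerebrum, a log2 fold change of -1.09 ± 0.11 (edgeR adjusted p = 0.000458). miR-212-5p was lower as well, by 1.27 on the log2 scale, so all 4 strands of the locus fell and none of them overlapped between the tissues.

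Of 6 tested names on the list of activity-linked miRNAs, these 4 were called lower, against 5.87% of all names, and all are strands of 1 locus. Both arms of miR-134, a dendritic miRNA of the Dlk1-Dio3 cluster, had log2 fold changes of 0.12 and -0.01 and were not called. The summed level of the list was 2219 to 3355 CPM in the hippocampus and 6412 to 9852 CPM in the cerebrum, and its median log2 fold change was -1.18, against 0.19 for all names. The same count of 4 was found without Animal3 and Animal8, without Animal9, and without Animal4, Animal8 and Animal9.

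**Figure D2:**
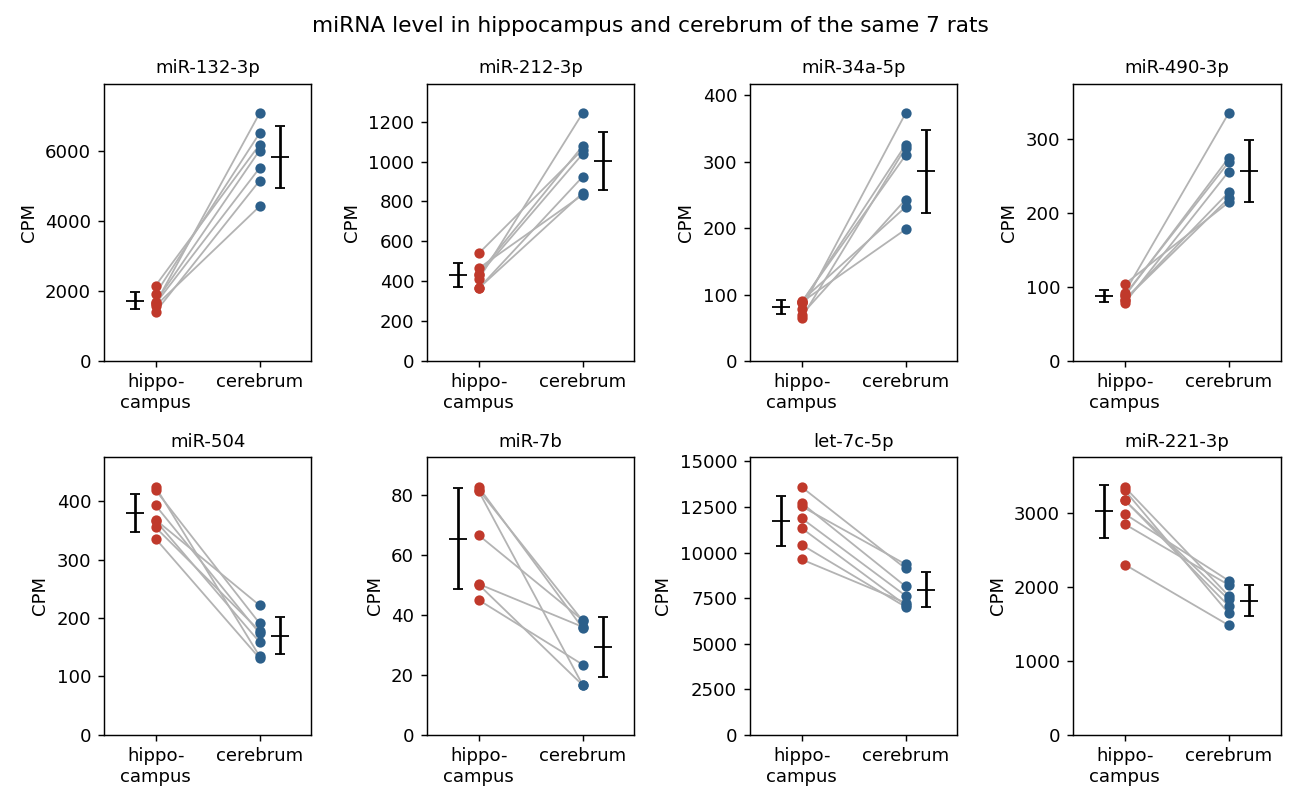
CPM of 8 miRNAs in hippocampus (red) and cerebrum (blue). Each grey line joins the libraries of 1 rat, and black marks give the mean and SD of 7 rats. The upper row shows lower levels in the hippocampus and the lower row higher levels, and in none of the 8 do the tissues overlap.

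miR-34a-5p, a miRNA under p53 control that is known to rise with neuronal maturation, was at 64.7 to 90.6 CPM in the hippocampus (median 87.2) and at 198 to 373 CPM in the cerebrum (median 310). The tissues did not overlap, and the log2 fold change was -1.67 ± 0.17 (edgeR adjusted p = 0.000458). miR-449a-5p, which carries the same seed and is best known from multiciliated cells, moved the other way. It was at 7.94 to 14.7 CPM in the hippocampus and 1.67 to 5.60 CPM in the cerebrum, a log2 fold change of 1.53 ± 0.29 (edgeR adjusted p = 0.00865). The other 2 tested miRNAs of this seed, miR-34b-5p and miR-34c-5p, had log2 fold changes of 0.45 and 0.60 and were not called. Of 41 seeds shared by 2 or more tested names, 20 had a call and 7 had 2 or more calls. Among those 7, the seed of miR-34a-5p and miR-449a-5p was the only one with calls in both directions. The call of miR-449a-5p was lost without Animal3 and Animal8 (log2 fold change 1.38), and on flow cell D1GBMACXX alone it was not tested.

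The remaining largest falls included miR-490-3p, miR-592 and both arms of miR-873, whose overlapping genes are given above. miR-383-5p, a brain miRNA, was at 100 to 245 CPM in the hippocampus and 534 to 782 CPM in the cerebrum, lower by a log2 fold change of -1.80 ± 0.16 (edgeR adjusted p = 0.000324). miR-490-3p was at 78.2 to 104 CPM (median 87.4) against 214 to 335 CPM (median 256), a log2 fold change of -1.41 ± 0.12 (edgeR adjusted p = 0.000268). miR-592 fell by 1.30 on the log2 scale, from 51.0 to 109 CPM in the cerebrum to 25.7 to 37.8 CPM in the hippocampus. For these 3 miRNAs every hippocampus library was below every cerebrum library. Both arms of miR-873 fell, with log2 fold changes of -1.26 for miR-873-3p and -0.95 for miR-873-5p. miR-335, imprinted with Mest, fell by 1.04, and its hippocampus level of 62.6 CPM in Animal11 was far below the 149 to 201 CPM of the other rats. The composite name miR-133a-3p;miR-133b-3p fell by 1.21 at a low level of 2.43 to 6.11 CPM against 7.99 to 21.7 CPM, while miR-133a-3p under its own name was not called (adjusted p = 0.193, edgeR).

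miR-187-3p was first among the 12 largest rises, at 219 to 326 CPM in the hippocampus (median 260) and 52.3 to 85.2 CPM in the cerebrum (median 76.4). Its log2 fold change was 1.94 ± 0.14 (edgeR adjusted p = 9.09e-05), or 3.83-fold. The lowest hippocampus library was above the highest cerebrum library. The other arm, miR-187-5p, rose as well, with a log2 fold change of 1.72 and a mean of 4.05 CPM against 1.36 CPM.

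miR-504, a regulator of p53, was at 336 to 425 CPM (median 369) in the hippocampus and 131 to 222 CPM (median 174) in the cerebrum, with a log2 fold change of 1.31 ± 0.12 (edgeR adjusted p = 0.000356). miR-935 was at 83.9 to 140 CPM against 36.8 to 78.0 CPM, also with a log2 fold change of 1.31 (edgeR adjusted p = 0.000458). miR-551b-3p was at 83.1 to 133 CPM against 30.1 to 64.2 CPM and miR-666-3p at 90.7 to 146 CPM against 38.7 to 79.3 CPM. None of these 4 overlapped between the tissues. miR-455-3p rose by a log2 fold change of 1.17, but with overlap, since its hippocampus libraries spread from 31.6 to 109 CPM.

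The miR-7 family, with roles in neuroendocrine cells and known for a dense set of sites on the circular RNA Cdr1as, had 4 names called higher. miR-7b was at 45.0 to 82.7 CPM in the hippocampus and 16.6 to 38.3 CPM in the cerebrum, a log2 fold change of 1.32 ± 0.23 (edgeR adjusted p = 0.0066). miR-7a-5p was at 210 to 450 CPM against 101 to 251 CPM, with overlap, and was higher in 6 of 7 rats (log2 fold change 1.02 ± 0.24, edgeR adjusted p = 0.0207). The passenger strands miR-7a-2-3p and miR-7a-1-3p were called higher too, by log2 fold changes of 0.96 and 0.62. These 4 were the calls among the 5 tested names of the list of pancreas and endocrine miRNAs, whose median log2 fold change was 0.96, against 9.74% of all names called higher and a median of 0.19. In a fit without Animal3 and Animal8 none of the 4 was called, although the list median was 0.94 there, and 2 were called without Animal3, Animal5 or Animal10.

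miR-221 and miR-222, a pair transcribed together at chrX:6022642-6023268 (GRCr8), share a seed and act on the cell cycle inhibitor Cdkn1b. miR-221-3p was at 2302 to 3351 CPM in the hippocampus (median 3172) and 1481 to 2085 CPM in the cerebrum (median 1832), a log2 fold change of 0.86 ± 0.10 (edgeR adjusted p = 0.00103). miR-222-3p was at 2695 to 3840 CPM against 1969 to 2946 CPM, and higher in all 7 rats with a log2 fold change of 0.59 ± 0.13 (edgeR adjusted p = 0.0155). The tissues did not overlap in the former and did in the latter. The 2 remaining tested strands, miR-221-5p and miR-222-5p, had log2 fold changes of 0.58 and 0.54 and were not called. Without Animal3, Animal5 or Animal10, 1 of the pair was called.

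The let-7 family is abundant in mature neurons and held back in stem cells by Lin28. Of 31 tested names, 8 were called higher and none lower, against 9.74% of all names called higher, and the median log2 fold change was 0.29, near the 0.19 of all names. let-7c-5p was at 9621 to 13595 CPM in the hippocampus (median 11882) and 7015 to 9356 CPM in the cerebrum (median 7629), without overlap (log2 fold change 0.69 ± 0.06, edgeR adjusted p = 0.000324). miR-98-5p did not overlap either, at 1031 to 1252 CPM against 631 to 997 CPM. The other calls were let-7a-5p, let-7b-3p, let-7b-5p, let-7d-5p, let-7f-5p and a composite of let-7a-5p and let-7d-5p, with log2 fold changes of 0.32 to 0.91. Under TMM scaling 5 names were called, and let-7a-5p, let-7b-3p and let-7f-5p were not. Without Animal3, Animal5, Animal8 or Animal10, 5 were called, and without both Animal3 and Animal8 2.

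let-7c, miR-99a and miR-125b-2 are neighbours on chr11, and let-7c-5p, both strands of miR-99a and miR-125b-2-3p were higher. miR-99a-5p was at 2128 to 2643 CPM in the hippocampus and 1251 to 1713 CPM in the cerebrum, a log2 fold change of 0.86 ± 0.10 (edgeR adjusted p = 0.000703). miR-125b-2-3p was at 1601 to 1840 CPM against 1091 to 1404 CPM, a log2 fold change of 0.62 ± 0.08 (edgeR adjusted p = 0.00161). Neither overlapped between the tissues. let-7c-5p has a second copy on chr7, and reads of the copies cannot be told apart. Of 12 tested names of miR-99, miR-100 and miR-125, 5 rose and none fell, among them both arms of miR-99b, against 9.74% of all names that rose. Under TMM scaling 4 rose. Without Animal3 or Animal10 2 rose, without Animal4 or Animal11 3, and without both Animal3 and Animal8 1.

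The neuronal markers did not move together. Of 20 tested names, 4 rose and 4 fell, against 9.74% and 5.87% of all names, and the median log2 fold change was -0.09. Under TMM scaling 2 rose and 4 fell, with miR-138-1-3p and miR-9a-3p no longer called. miR-218a-5p, a miRNA of motor and hippocampal neurons, was at 2259 to 3241 CPM in the hippocampus (median 2848) and 738 to 1930 CPM in the cerebrum (median 1747), a log2 fold change of 0.99 ± 0.20 (edgeR adjusted p = 0.013). The 738 CPM were those of the cerebrum of Animal9, and the next lowest cerebrum was at 1410 CPM, still below every hippocampus. miR-128-3p, which restrains neuronal excitability, went the other way at a high level, with 20257 to 30864 CPM against 34122 to 48970 CPM (log2 fold change -0.70 ± 0.13, edgeR adjusted p = 0.00876). miR-128-1-5p, miR-129-5p and miR-129-1-3p;miR-129-2-3p were called lower, and miR-218a-2-3p, miR-138-1-3p and miR-9a-3p higher. miR-124-3p, the defining neuronal miRNA, was at a mean of 5154 CPM in the hippocampus and 5933 CPM in the cerebrum and was not called (log2 fold change -0.08). Without Animal3 and Animal8, 1 of the 20 was called, without Animal10 3, and without Animal3 or Animal5 4.

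**Figure D3:**
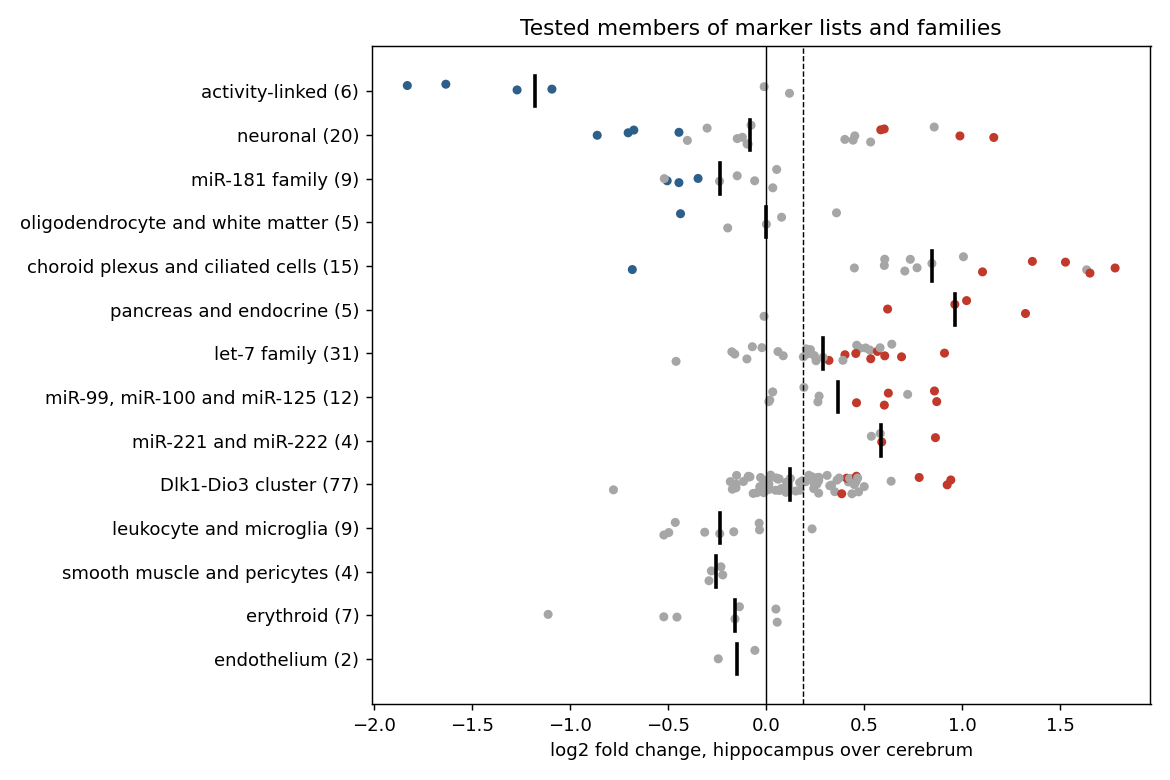
Log2 fold change of hippocampus over cerebrum for the tested members of 14 lists, with the number tested in brackets. Each point is a name (red called higher, blue called lower, grey not called), the black bar is the median of the list, and the dashed line is the median of all names at 0.19. The activity-linked list, whose calls are all strands of the miR-132 and miR-212 locus, has its median at -1.18. The pancreas and endocrine list, which holds miR-7, has its median at 0.96.

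Of 9 tested names of miR-181, a family abundant in brain and lymphoid cells, 3 were called lower, against 5.87% of all names. miR-181a-5p, among the most abundant names of these libraries, was at 88740 to 120710 CPM in the hippocampus (median 109456) and 124863 to 172266 CPM in the cerebrum (median 150162), without overlap (log2 fold change -0.35 ± 0.08, edgeR adjusted p = 0.0221). miR-181c-5p was at 3423 to 4220 CPM against 5095 to 6391 CPM (log2 fold change -0.51 ± 0.08, edgeR adjusted p = 0.00444), and its other arm, miR-181c-3p, was called lower too. The family median was -0.24, and miR-181b-5p, at a log2 fold change of -0.06, was not called. Under TMM scaling 5 were called lower, and without Animal3, Animal5 or Animal10 1.

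Of the other 4 of the 5 most abundant names, miR-127-3p, from the imprinted Rtl1 locus, had a mean of 169188 ± 12664 CPM (SD, n = 7) in the hippocampus and 134980 ± 17459 CPM in the cerebrum (log2 fold change 0.46 ± 0.10, edgeR adjusted p = 0.0166). miR-22-3p had 121064 ± 7307 against 100025 ± 4476 CPM, higher in all 7 rats and without overlap (log2 fold change 0.40, edgeR adjusted p = 0.00262). miR-26a-5p rose by a log2 fold change of 0.28, close to the median of all names, and was not called under TMM scaling (edgeR adjusted p = 0.261). miR-9a-5p, a neural progenitor and neuron miRNA, was not called (log2 fold change 0.45, edgeR adjusted p = 0.0939). Its cerebrum level was 18611 CPM in Animal9 and 33575 to 39462 CPM in the other rats.

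The Dlk1-Dio3 cluster on chromosome 6, an imprinted locus of maternally expressed brain miRNAs, had 77 tested names, of which 7 were called higher and none lower, with a median log2 fold change of 0.12. This share of calls is near the 9.74% of all names called higher. The calls were miR-127-3p, miR-323-3p, miR-381-3p, miR-487b-3p, miR-666-3p and both arms of miR-493, with log2 fold changes of 0.38 to 0.94. With TMM scaling 5 were higher and 2 lower. Without Animal3 4 were called, without Animal10 3, and without both Animal3 and Animal8 none.

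Among 109 hairpins matched in RefSeq with both arms tested, the log2 fold changes of the arms had a Pearson r of 0.87 and a Spearman rho of 0.74, across hairpins, which are not independent replicates and share the libraries. Both arms were called for 10 hairpins, with the same direction in all 10. They were miR-132, miR-212, miR-490, miR-873 and miR-181c, which were lower, and miR-187, miR-448, miR-493, miR-99b and let-7b, which were higher. For 17 further hairpins 1 arm was called. Outside the matched hairpins, both strands of miR-99a were called higher, and both strands of miR-383 and miR-674 lower.

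**Figure D4:**
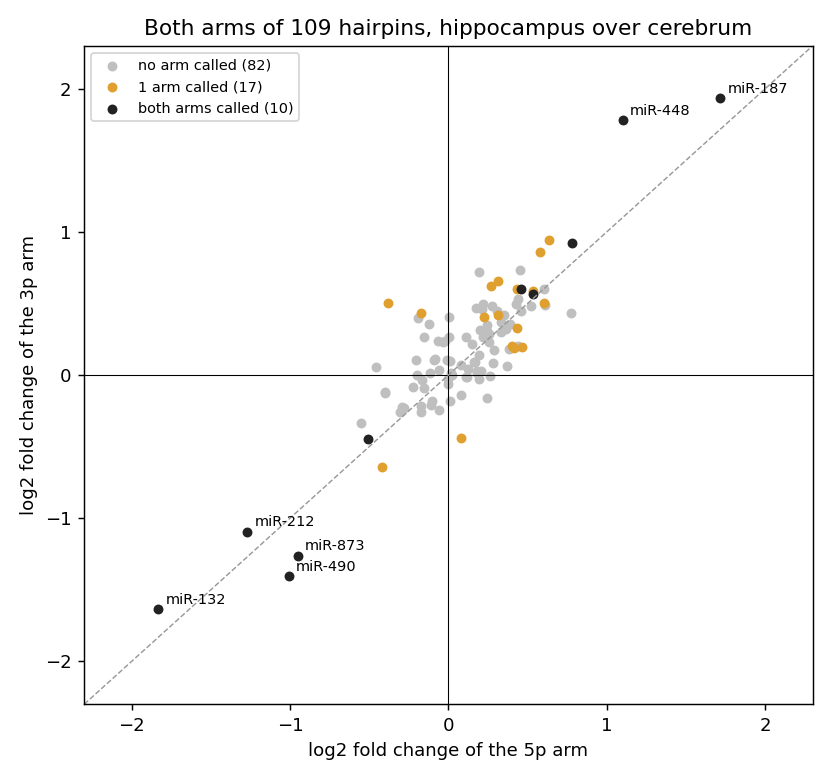
Log2 fold change (hippocampus over cerebrum) of the 3p arm against that of the 5p arm for 109 hairpins. Points are coloured by the number of arms called (82 with none, 17 with 1, 10 with both), and the dashed line marks equal change. The 10 hairpins with both arms called lie at the lower left, where both arms fell, and at the upper right, where both rose.

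Of 15 tested markers of the choroid plexus and ciliated cells, 5 rose and 1 fell, against 9.74% and 5.87% of all names. Their median log2 fold change was 0.85, against 0.19 for all names. The rises are not all independent markers. miR-448-3p and miR-448-5p are arms of 1 hairpin within Htr2c, and miR-764-3p, the other strand of the called miR-764-5p, lies within the same gene. miR-3552, which is not on the list, also lies within Htr2c and was called higher (log2 fold change 1.52). miR-1264-3p had no matched RefSeq sequence, so its gene is not given here. The summed level of the list was 2767 to 14588 CPM in the hippocampus (median 3330) and 2289 to 3094 CPM in the cerebrum. miR-204-5p, the most abundant of the list, was at 9214 CPM in the hippocampus of Animal8, at 4218 CPM in that of Animal3 and at 1796 to 2343 CPM in the other 5, against 1523 to 2492 CPM in the cerebrum. It was not called (log2 fold change 0.71 ± 0.30, edgeR adjusted p = 0.156).

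miR-448-3p, from Htr2c, followed with 412 CPM in Animal8, 102 CPM in Animal3 and 54.9 to 95.5 CPM in the other hippocampi, against 20.3 to 35.7 CPM in the cerebrum. Every hippocampus library was above every cerebrum library (log2 fold change 1.78 ± 0.35, edgeR adjusted p = 0.0105). miR-448-5p, miR-1264-3p and miR-764-5p, at low levels with means of 9.14, 7.01 and 4.44 CPM in the hippocampus, were called higher with log2 fold changes of 1.10, 1.36 and 1.65. miR-211-5p, of the same seed as miR-204-5p, was called lower by a log2 fold change of -0.68 at a mean of 7.59 CPM. Without Animal3 and Animal8, 2 names of the list were called, both higher, and the list median was 0.67. The part of choroid plexus tissue in these results was not tested.

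Markers of other cells showed few calls. These lists are short, and with 15.6% of all names called in either direction, few calls or none are near that share. None of the 9 leukocyte and microglia, 7 erythroid, 4 smooth muscle and pericyte or 2 endothelial names tested was called, and their list medians were between -0.26 and -0.15. Under TMM scaling 1 erythroid and 1 endothelial name were called lower, and DESeq2 added 1 smooth muscle name. Of 5 oligodendrocyte and white matter names, 1 was called, miR-219a-2-3p, at 519 to 798 CPM against 821 to 1115 CPM (log2 fold change -0.44, edgeR adjusted p = 0.0374). Its other arm, miR-219a-5p, had a log2 fold change of 0.08 and was not called. miR-338-3p, on the same list, had a log2 fold change of 0.00. The HOX cluster miRNA miR-10a-5p, typical of hindbrain and spinal cord, was lower in the hippocampus, at 72.6 to 241 CPM against 127 to 367 CPM (log2 fold change -0.94, edgeR adjusted p = 0.00717). The liver miRNA list was at 3.63 CPM or less in each of the 14 libraries.

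The remaining lists had 1 call or none each, against 15.6% of all names called in either direction. Of 7 tested epithelial names, miR-203a-3p fell by 0.93 on the log2 scale, and of 4 tested miR-344 names, miR-344i rose by a log2 fold change of 1.46 at a mean of 3.93 CPM. miR-26a-5p, described above, was the call among 10 names of the miR-26 and miR-101 list. miR-92b-3p (0.66) was the only call among 17 names of the miR-17-92 and miR-106b-25 list. It is counted there by its name and shares the seed of miR-25-3p and miR-92a-3p. Its own place is chr2:176931663-176931684, so it is a member of neither cluster. miR-497-5p (0.50) was the call among 8 names of the miR-15, miR-16, miR-195 and miR-497 list. miR-30d-5p (-0.31) and miR-23a-3p (-0.52) were the calls in their families of 15 and 10 tested names, and under TMM scaling 5 of the 10 names of miR-23, miR-27 and miR-24 were called lower. No name was called among 3 gut and kidney epithelium, 9 miR-29, 4 miR-103 and miR-107, 4 miR-384 and miR-325, and 7 miR-322, miR-503, miR-351 and miR-542 names. Under TMM scaling 2 of the latter 7, 2 of the miR-17-92 list, 1 of the miR-15 list and 1 of the miR-344 names were called lower, and DESeq2 called 1 gut and kidney name higher.

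The cerebellum and brainstem of the same 7 rats show whether a difference from the cerebrum was also one from other brain regions. In a fit of the 4 regions (28 libraries), 53.2% of 728 names were called against the cerebellum (23.2% higher and 29.9% lower in the hippocampus). Against the brainstem 39.8% were called (19.5% higher and 20.3% lower), and in the fit of hippocampus and cerebrum alone 15.6% of 647. A direction is given here only if it was called under upper quartile and TMM scaling and was that of the mean CPM. The names were chosen on the same hippocampus and cerebrum libraries, so their order over the regions is a description. Of the 12 largest rises, 6 were then also higher than in both other regions, and these were miR-935, miR-504, miR-7a-2-3p, miR-551b-3p, miR-7b and miR-218a-5p. The share of all names that meet this joint rule is not given here, so the 6 of 12 cannot be set against it. The mean of miR-935 was 113 CPM in the hippocampus, 50.6 in the cerebrum, 5.37 in the cerebellum and 14.8 in the brainstem. miR-504 had means of 381, 170, 29.6 and 51.7 CPM in the same order. Both were highest in the hippocampus and lowest in the cerebellum.

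miR-187-3p was at 212 to 339 CPM in the cerebellum, which overlapped the hippocampus, with means of 294 CPM there and 259 CPM in the hippocampus. It was called lower in the hippocampus under upper quartile scaling (log2 fold change -1.01, edgeR adjusted p = 2.38e-05). Under TMM scaling its log2 fold change was -0.75, so the size of the difference depends on the scaling. The mean CPM lay closer together than either value. miR-448-3p ranged from 1.97 to 253 CPM in the cerebellum and was called against neither region. The miR-132 and miR-212 strands were higher in the hippocampus than in the cerebellum and the brainstem. The means of miR-132-3p were 1718 CPM in the hippocampus, 5841 in the cerebrum, 262 in the cerebellum and 932 in the brainstem. miR-34a-5p and miR-133a-3p;miR-133b-3p were lower in the hippocampus than in each other region. Mean levels of miR-34a-5p were 81.1, 286, 473 and 1497 CPM in hippocampus, cerebrum, cerebellum and brainstem, a log2 fold change of -4.05 against the brainstem (edgeR adjusted p = 1.7e-10).

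**Figure D5:**
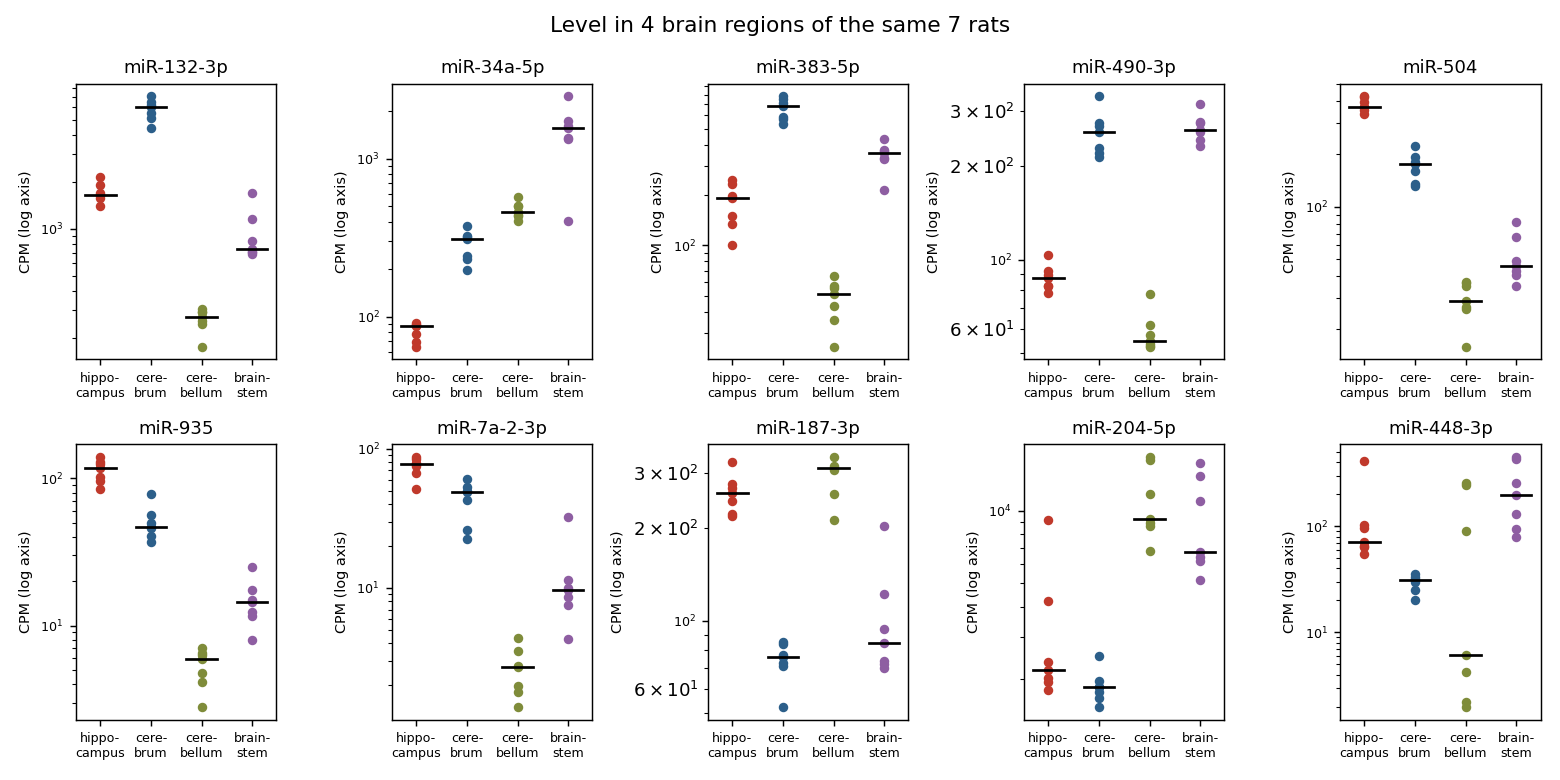
CPM (log axes, which differ between panels) of 10 miRNAs in 4 brain regions of the same 7 rats. Each point is a library and the black bar is the median. miR-504, miR-935 and miR-7a-2-3p are highest in the hippocampus, miR-132-3p in the cerebrum and miR-34a-5p in the brainstem, and miR-204-5p and miR-448-3p spread widely between rats.

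Whether the difference between the tissues depended on sex was tested as an interaction in 4 female and 3 male rats. No name passed the threshold in edgeR (27 with an unadjusted p under 0.05, and 0 calls with 36 such names in DESeq2). The smallest p among the miRNAs named here was that of miR-219a-2-3p, with a log2 fold change of -0.76 in males and -0.22 in females (edgeR adjusted p = 0.976). For miR-132-3p the values were -1.63 and -1.66, and for miR-187-3p 1.96 and 1.90.

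The share of the most counted sequence among the isomiRs (length and end variants of a miRNA) was compared for 184 of these names with at least 100 counts in each library. None passed the threshold after adjustment (exact two-sided sign flip test over 7 pairs, 25 with an unadjusted p under 0.05). For miR-127-3p the main sequence took 55.0% ± 1.29 (SD, n = 7) of its counts in the hippocampus and 45.4% ± 10.1 in the cerebrum, higher in 7 of 7 rats (exact p = 0.0156, adjusted 0.287). Without Animal9, whose cerebrum holds the added base, the shares were 55.1% ± 1.33 and 49.2% ± 1.41, higher in 6 of 6 rats (exact p = 0.0312, adjusted 0.278). The smallest p that 7 pairs allow leaves little room under adjustment over 184 names.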

How the data were processed

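Total RNA was purified by the authors with miRNeasy and sequenced after TruSeq small RNA preparation. The deposited values are counts per miRNA name or isomiR and run, made by the authors with cutadapt 1.4.1 and assignment to miRBase with miRDeep2, not normalized. Predicted names came from the authors' alignment to the rat genome RN5, whose coordinates are not used here. Runs were summed per library (28 runs for the 14 libraries). Of the counts, 0.836% were on predicted names, 0.0993% on precursors and 1.14% on composite names for shared reads.

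edgeR 4.0.16 in R 4.3.3 gave the quasi-likelihood F test (upper quartile scaling, filterByExpr, rat as block), and DESeq2 1.42.0 was an alternative. SE is the log2 fold change over the root of F. Pairing comes from the animal ids, and after removal of tissue means the libraries of a rat correlated by -0.65 to 0.86. For Animal3, Animal4, Animal5, Animal9 and Animal11, the hippocampus correlated more highly with the cerebrum of some other rat than with its own. The pairing thus rests on the ids. On simulated data (647 names), the fit recovered 51% of log2 changes of 1 and 100% of log2 changes of 2. It made 2 calls among 447 unchanged names. The simulated names shared a dispersion of 0.174 and held no outlying rats, so these rates need not hold for the real libraries.

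Named miRNAs were the 12 largest rises and 12 largest falls among calls with 1 direction in 7 pairs and at least 10 CPM in the higher tissue, the 5 most abundant names, and called list members. Uncalled members, and miR-187-5p, were chosen after their values were seen. The comparison, lists and tests were chosen with earlier results of these data known, and the fits without Animal3 and Animal8, with 1 run of the cerebrum of Animal9 and by sex were added after seeing the data. p-values cover the spread between these rats, and read counts without molecular identifiers are not independent molecules.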

Additional observations from a re-analysis of the deposited data

Results flagged for a closer look

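In 68 groups of 7 values (the levels of the 12 largest rises, the 12 largest falls and the 5 most abundant names, and measures of the libraries, each within a tissue), 14 samples lay far from the other 6 by Dixon's test. Chance alone gives about 1 such sample in 20 groups.

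Animal9 accounts for 6 of them, all in the cerebrum. They are the mean read length (22.5 bases), the share of reads of 23 bases (36.3%), the share with an added 5′ G (14.1%), and the levels of miR-22-3p (109866 CPM), miR-9a-5p (18611 CPM) and miR-551b-3p (30.1 CPM). Animal8 was far from the others in 3 groups, with miR-448-3p at 412 CPM and miR-449a-5p at 14.7 CPM in the hippocampus and miR-133a-3p;miR-133b-3p at 21.7 CPM in the cerebrum. Animal11 had the lowest hippocampus values of miR-335 (62.6 CPM) and mean read length (21.9 bases) and the highest share of reads with an added G (0.179%) in that tissue. The cerebrum of Animal5 had the lowest miR-187-3p (52.3 CPM), and the cerebrum of Animal10 the highest total (7506562 counts).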

How the results depend on the processing

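Against 101 calls (63 higher, 38 lower), leaving out 1 rat gave 52 to 112, the lowest without Animal10. TMM scaling gave 110, DESeq2 size factors 115, DESeq2 133, no filter on low counts 109 and the fit without predicted and precursor names 129. These are not all the same names. Of the 101 calls, 84 were also called under TMM scaling, 93 with DESeq2 size factors and 96 in DESeq2. Only 66 were also called with no filter, and 95 without predicted and precursor names. Without the replicate block, which ignores the pairing, 136 were called (89 higher, 47 lower). The unpaired test gave 9 calls of isomiR shares against 0, and for RIN the same difference of -0.871 with an exact permutation p of 0.0355. With flow cell D1GBMACXX alone, fewer names could be tested, and 59 of 394 were called (239 against the cerebellum, 177 against the brainstem). Without Animal3 and Animal8, 25 were called, and 14 of the 24 largest changes, with 24 in the same direction. With the cerebrum of Animal9 taken from its run on flow cell D1GBMACXX alone, 99 were called. Of the 101 calls, 94 were also called there, with all 24 largest changes among them. With no filter, 7 names differed by sex against 0. Leaving out 1 rat gave 366 to 398 calls against the cerebellum, 241 to 319 against the brainstem, 0 by sex and a RIN difference of -1.05 to -0.683. Of the 101 calls, 0 were called in the 3 males alone and 13 in the 4 females alone, where fewer pairs limit the number of calls. All 24 largest changes kept their direction in the males alone and in the females alone. On flow cell D1GBMACXX alone, 22 of the 24 were called, in the same direction, without miR-449a-5p and miR-133a-3p;miR-133b-3p.

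With all 10 animals, the 3 libraries with another organ's profile included, no name was called in edgeR (96 with an unadjusted p under 0.05). There the log2 fold change turned to -0.12 for miR-551b-3p, -0.15 for miR-7a-2-3p, -0.26 for miR-666-3p, -0.73 for miR-127-3p, -0.85 for miR-9a-5p, -0.23 for miR-138-1-3p, -0.72 for miR-9a-3p, -0.77 for miR-323-3p, -0.51 for miR-381-3p, -0.0049 for miR-493-5p, -0.83 for miR-487b-3p, -0.18 for miR-222-3p and -0.46 for miR-92b-3p, and to 0.16 for miR-203a-3p, 0.42 for miR-10a-5p and 0.17 for miR-23a-3p.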

Other observations

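Of the 101 calls, 31 lay outside the lists, the largest changes and the 5 most abundant names, 6 of them predicted or precursor names. miR-383-3p and miR-490-5p fell with their partner strands at means of 2.11 and 2.54 CPM in the hippocampus, and the precursor name mir-335-pre fell by 1.22 on the log2 scale beside miR-335. Both strands of miR-674 fell, miR-674-5p by 0.59 and miR-674-3p by 0.79. miR-210-3p, a hypoxia-induced miRNA, was called lower at a mean of 45.9 CPM against 76.7 CPM (log2 fold change -0.64, edgeR adjusted p = 0.0291). miR-191a-5p was among the more abundant of these calls, at 26452 CPM against 21798 CPM (log2 fold change 0.42). These names were chosen after their values were seen.

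miR-1298, also counted under choroid plexus and ciliated cells, had a mean of 465 CPM in the hippocampus and 90.0 CPM in the cerebrum and was not called (log2 fold change 1.63 ± 0.51, edgeR adjusted p = 0.0636), while a composite of a predicted X-linked name and mir-1298-pre was called higher by a log2 fold change of 1.29.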
